A study of Mus musculus with 2 samples.

Results

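The genes described here are the transcription factor NRF2 (gene Nfe2l2), its inhibitor KEAP1 and 8 antioxidant genes that NRF2 is known to switch on (Slc7a11, Gclc, Gclm, Gsr, Txnrd1, Srxn1, Nqo1 and Cbr3). They were taken by gene symbol from the deposited count files, and all 10 were found, each on 1 of the 51912 gene rows. RNA-seq was done on 2 lines of mouse embryonic fibroblasts (MEFs, the connective tissue cells that grow out of minced embryos), with 1 library per line. The UKS line is labelled Usp16-/-, a deletion of Usp16 from floxed alleles, and the KS line carried wild-type Usp16 (Usp16+/+). Usp16 encodes a ubiquitin protease that acts on histone H2A. Both lines have a C57BL/6 background, were made immortal with the SV40 T antigen, which blocks the tumour suppressors p53 and RB, and received an adenovirus with Cre recombinase. How many embryos or clones gave each line is not given in the sources used here.

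NRF2 is held at a low protein level in unstressed cells because KEAP1 binds it and presents it to a ubiquitin ligase built on cullin 3. Oxidants and electrophiles modify cysteines of KEAP1, NRF2 then escapes degradation, pairs with a small MAF protein and binds antioxidant response elements in its target genes. These targets make glutathione, recycle glutathione and thioredoxin, and reduce quinones and carbonyls. The control acts mainly on the NRF2 protein, which RNA-seq does not measure.

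The promoters of Slc7a11, Nqo1 and Srxn1 are shown because these genes represent a moderate difference, the highest ratio and the lowest ratio among the 10 genes. Each line gives the 250 bases before the RefSeq start site on GRCm38.p6, 5′ to 3′ on the gene's strand, and capitals mark matches to the motifs described after the sequences.
Slc7a11 (chr3:50443614-50443863, minus strand): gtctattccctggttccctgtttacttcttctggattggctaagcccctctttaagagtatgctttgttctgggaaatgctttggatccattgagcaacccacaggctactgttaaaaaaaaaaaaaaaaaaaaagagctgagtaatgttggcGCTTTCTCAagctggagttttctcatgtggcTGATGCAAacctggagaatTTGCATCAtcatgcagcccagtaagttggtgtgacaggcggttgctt
Nqo1 (chr8:107403206-107403455, minus strand): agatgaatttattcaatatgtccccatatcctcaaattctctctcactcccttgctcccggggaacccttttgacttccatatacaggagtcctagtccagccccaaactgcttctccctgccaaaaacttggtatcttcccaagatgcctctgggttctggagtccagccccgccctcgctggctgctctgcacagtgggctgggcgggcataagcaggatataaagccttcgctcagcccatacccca
Srxn1 (chr2:152105274-152105523, plus strand): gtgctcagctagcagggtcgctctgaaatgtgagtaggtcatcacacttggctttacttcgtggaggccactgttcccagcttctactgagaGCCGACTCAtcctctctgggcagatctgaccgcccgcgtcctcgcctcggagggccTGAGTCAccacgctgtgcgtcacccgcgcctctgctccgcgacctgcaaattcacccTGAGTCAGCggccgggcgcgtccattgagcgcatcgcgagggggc

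The letters searched on both strands were those of the antioxidant response element (TGACNNNGC or TGAGNNNGC), of the AP-1 site (TGANTCA) and of the amino acid response element bound by ATF4 (TGATGNAA). An AP-1 match can lie inside a match to the antioxidant response element. The Srxn1 window held 2 matches to the antioxidant response element, TGAGTCAGC beginning 45 bases before the start and TGAGTCGGC on the opposite strand beginning 158 bases before it, and 2 AP-1 matches, of which 1 overlapped TGAGTCAGC. The Slc7a11 window held 1 match to the antioxidant response element (TGAGAAAGC on the opposite strand) and 2 facing matches to the amino acid response element (TGATGCAA, beginning 66 and 47 bases before the start). The Nqo1 window, like those of Cbr3 and Keap1, held none of these letters. RefSeq gave 10 windows for 8 of the 10 genes (Gclc and Gsr were not matched), and 5 windows of 5 genes (Nfe2l2, Gclm, Txnrd1, Srxn1 and Slc7a11) held an antioxidant response element match. Of all 32841 windows of this length, 23.0% held such a match, 6.75% an AP-1 match and 3.45% an amino acid response element match. A match describes the letters and does not show binding, and a window without a match says nothing of sites elsewhere.

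The deposited values were estimated read counts, which summed to 23205734 in UKS and 26561600 in KS after rounding. Levels are given as CPM, the count of a gene relative to a library total scaled with TMM (a factor that sets most genes of both libraries level), so that 1 count was 0.0428 CPM in UKS and 0.0379 CPM in KS. Differences are given as log2((UKS + 1)/(KS + 1)) of CPM. With 1 library per group no test between the groups was possible, so no p-values are given and every difference describes these 2 libraries. Brackets hold exact 95% intervals, which cover counting error only and not variation between cultures, and amplified reads are not independent molecules. Usp16 had 459 counts (19.7 CPM) in UKS and 1195 counts (45.3 CPM) in KS, 2.30-fold lower in UKS [2.07 to 2.57]. Its log2 ratio of −1.16 was −0.88 with a trend over transcript length and GC content removed. Usp16 RNA was thus lower in UKS but still counted, and which exons gave these counts was not examined. The lines also differed in sex-linked transcripts, with 6998 Xist counts in UKS and 1 in KS. The 4 Y-linked genes had 0 to 8 counts in UKS and 817 to 1511 in KS. With 1 library per line, the Usp16 deletion and other differences between the lines, such as this one, cannot be told apart. Of 12 fibroblast markers, fibronectin (Fn1) was abundant in both, at 14581 CPM in UKS and 8995 CPM in KS. So was vimentin (Vim), at 2413 CPM in UKS and 4205 CPM in KS. The 12 markers had a median log2 ratio of −0.34, with 7 below 0 and 5 above. Past 2-fold lower in UKS were Thy1 (35.6 CPM, against 167.6 CPM in KS) and Pdgfra (105.8 CPM, against 302.4 CPM in KS). These 2 were 16.7% of the markers, beside 10.7% of all genes past 2-fold lower. No marker lay past 2-fold higher, beside 5.81% of all genes. With the trend removed the median of the markers was −0.28, with 3 above 0, beside 6571 of all 12997 genes. On that scale 3 markers were past 2-fold lower and 1 past 2-fold higher, beside 4.95% and 5.52% of all genes. Summed markers of other cell types came to 1.5 CPM in UKS and 3.86 CPM in KS for epithelium (7 genes), 7.75 and 7.08 for blood cells (8 genes), 3.64 and 3.71 for endothelium (6 genes), 23.9 and 32.7 for neural cells (7 genes) and 1.11 and 1.86 for skeletal muscle (6 genes). The epithelial gene Krt14, the macrophage gene Adgre1 and the T cell gene Cd3e had no counts in either library. In such bulk samples fewer cells of a type and less RNA per cell cannot be told apart.

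Of the 10 genes, 3 (30%) lay at or past 2-fold higher in UKS on the log2 scale, Nqo1, Cbr3 and Slc7a11, and none lay at or past 2-fold lower. Among all 13015 genes whose mean reached 1 CPM, 5.81% lay past 2-fold higher and 10.7% past 2-fold lower, 16.5% in either direction. All 10 genes passed this filter on low values. Their log2 ratios ran from −0.30 for Srxn1 to 2.89 for Nqo1 with a median of 0.38, beside a median of 0.03 for all genes. A positive ratio was found for 6 of the 10 genes (60%) and for 6757 of all genes (51.9%). Gclc lay just short of 2-fold (log2 0.97), and the remaining 6 genes lay between −0.30 and 0.41.

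**Figure D1:**
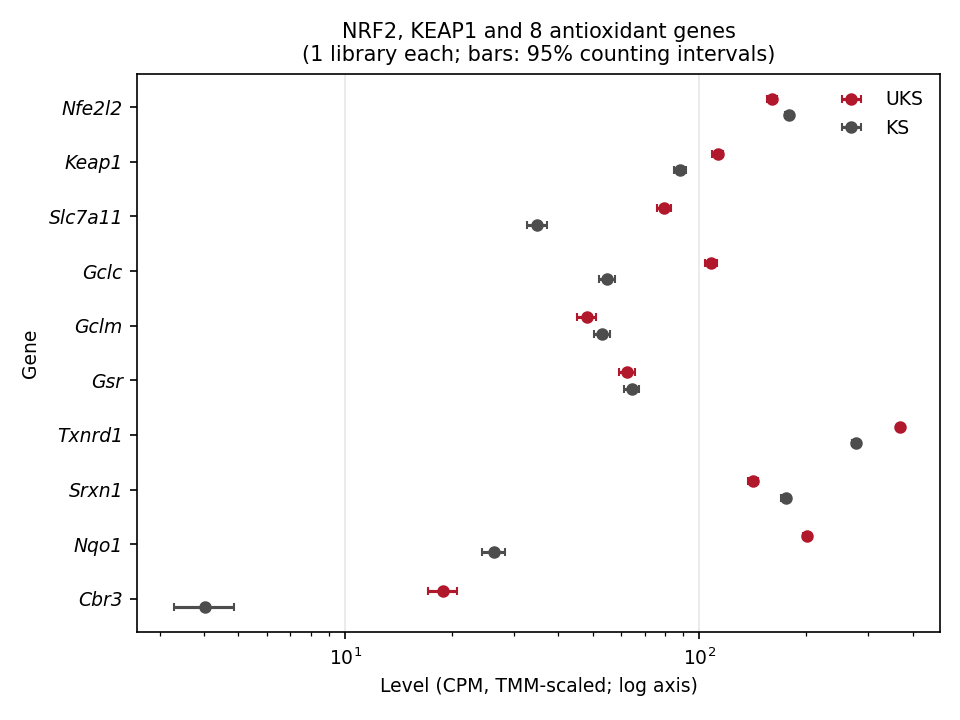
Levels of the 10 genes in TMM-scaled CPM on a log axis, with UKS (red) above KS (grey) in each row; points are single libraries and bars are exact 95% Poisson counting intervals. Nqo1 stood at 201.3 CPM in UKS and 26.3 CPM in KS, the widest gap, while the bars of Gsr and of Gclm overlap between the libraries.

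A trend with transcript length and GC content ran through the ratios of all genes and reached some of the 10. Across 12997 genes, which share the same pair of libraries, Spearman's correlation of the log2 ratio was −0.40 with transcript length and 0.52 with GC content. Each ratio of the 10 genes is therefore also given with the fitted trend subtracted. On that scale 4 of the 10 genes lay past 2-fold higher (Nqo1, Slc7a11, Cbr3 and Gclc) and none past 2-fold lower, beside 5.52% higher and 4.95% lower of all genes (10.5% in either direction), and the median was 0.49. The part of the trend in any difference was not tested.

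The regulators themselves differed little. Nfe2l2 (ENSMUSG00000015839; GRCm38 chromosome 2, 75675513 to 75704641, minus strand), which encodes NRF2, had 3734 counts in UKS and 4729 in KS. This was 159.9 CPM in UKS and 179.1 CPM in KS, 1.12-fold lower in UKS [1.07 to 1.17], with a log2 ratio of −0.16 and of −0.12 with the trend removed. Keap1 (ENSMUSG00000003308; chromosome 9, 21229730 to 21239361, minus strand), the adaptor that hands NRF2 to its ubiquitin ligase, had 2627 counts in UKS and 2325 in KS. It stood at 112.5 CPM in UKS and 88.1 CPM in KS, 1.28-fold higher [1.21 to 1.35]. Its log2 ratio of 0.35 was 0.06 with the trend removed, since Keap1 is a GC-rich transcript (58.0% GC) and the trend at its length and GC content was 0.29. An antisense gene shares 510 exonic bases with Keap1 but had only 22.1 estimated counts in UKS and 36.1 in KS. Scaled to transcript length, Nfe2l2 stood 2.08 times above Keap1 in UKS and 2.97 times above it in KS.

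Among the genes of glutathione synthesis, the cystine supply and the catalytic enzyme subunit were higher in UKS on both scales, while the modifier subunit changed side between them. Slc7a11 (ENSMUSG00000027737; chromosome 3, 49892526 to 50443614, minus strand), the transport subunit of the cystine-glutamate exchanger xCT, had 1861 counts in UKS and 918 in KS. Its level was 79.7 CPM in UKS and 34.8 CPM in KS, 2.29-fold higher [2.12 to 2.48] and a log2 ratio of 1.17. Slc7a11 has the longest transcript (9223 nt) and the lowest GC content (40.7%) of the 10 genes, a combination whose trend was −1.12, and with the trend removed its log2 ratio was 2.29.

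Gclc (ENSMUSG00000032350; chromosome 9, 77754535 to 77794485, plus strand) encodes the catalytic subunit of glutamate-cysteine ligase, the rate-limiting enzyme of glutathione synthesis. It had 2522 counts in UKS and 1445 in KS, which is 108.0 CPM in UKS and 54.7 CPM in KS, 1.97-fold higher [1.85 to 2.11]. Its log2 ratio was 0.97 as measured and 1.06 with the trend removed, so that it lay on either side of 2-fold by a small margin. Gclm (ENSMUSG00000028124; chromosome 3, 122245557 to 122270732, plus strand), the modifier subunit that raises the activity of Gclc, had 1122 counts in UKS and 1403 in KS. It stood at 48.1 CPM in UKS and 53.2 CPM in KS, 1.11-fold lower in UKS [1.02 to 1.20], and its log2 ratio of −0.14 turned to 0.55 with the trend removed, where the trend at its length (5589 nt) and GC content (42.1%) was −0.70. The direction for Gclm is thus not settled by these data. Its exons overlap those of a transcript on the other strand (296 bases, 23.9 estimated counts in UKS and 32.9 in KS) and of a pseudogene (244 bases, 0.11 in UKS and 0 in KS). Scaled to transcript length, the catalytic subunit stood 3.67 times above the modifier subunit in UKS and 1.68 times above it in KS, and the log2 ratios of Gclc and Gclm between the libraries differed by 1.11, or by 0.51 with the trend removed.

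Gsr (ENSMUSG00000031584; chromosome 8, 33652523 to 33698163, plus strand), the reductase that restores oxidized glutathione at the expense of NADPH, had near-equal levels. It had 1460 counts (62.5 CPM) in UKS and 1699 counts (64.4 CPM) in KS. The fold of 0.972 [0.905 to 1.04] included equal levels, and the log2 ratio was −0.04 as measured and −0.16 with the trend removed.

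The genes of thioredoxin and peroxiredoxin repair were abundant in both libraries and lay on opposite sides of 0. Txnrd1 (ENSMUSG00000020250; chromosome 10, 82833951 to 82897712, plus strand), the cytosolic selenoenzyme that reduces thioredoxin, had 8603 counts (368.5 CPM) in UKS and 7298 counts (276.4 CPM) in KS. This was 1.33-fold higher in UKS [1.29 to 1.38], with a log2 ratio of 0.41 that was 0.42 with the trend removed. Srxn1 (ENSMUSG00000032802; chromosome 2, 152105516 to 152111376, plus strand), sulfiredoxin, which rescues overoxidized peroxiredoxins, had 3313 counts (141.9 CPM) in UKS and 4629 counts (175.3 CPM) in KS. It was 1.24-fold lower in UKS [1.18 to 1.29], at a log2 ratio of −0.30 and of −0.55 with the trend removed. The gene whose promoter window held the most antioxidant response element matches among the 8 matched genes was the one with the lowest ratio. Whether such matches bear on the ratios was not tested.

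As measured, the genes of quinone and carbonyl reduction had the 2 highest ratios of the 10, while with the trend removed Slc7a11 (2.29) stood above Cbr3 (1.48). Nqo1 (ENSMUSG00000003849; chromosome 8, 107388225 to 107403206, minus strand), the NAD(P)H quinone dehydrogenase widely read as an NRF2 reporter, had 4701 counts in UKS and 693 in KS. Its level was 201.3 CPM in UKS and 26.3 CPM in KS, 7.67-fold higher [7.08 to 8.32]. The log2 ratio of 2.89 stood at percentile 99.5 of all measured genes and was 2.84 with the trend removed, again at percentile 99.5. Cbr3 (ENSMUSG00000022947; chromosome 16, 93683215 to 93690990, plus strand), a carbonyl reductase, was the least abundant of the 10 genes in CPM, with 440 counts (18.8 CPM) in UKS and 106 counts (4.02 CPM) in KS. It was 4.69-fold higher in UKS [3.79 to 5.86], with a log2 ratio of 1.98 that was 1.48 with the trend removed. Together the 10 genes took 1301 CPM in UKS and 956 CPM in KS, and Nqo1 accounted for 175.1 CPM of the summed difference of 345.0 CPM.

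**Figure D2:**
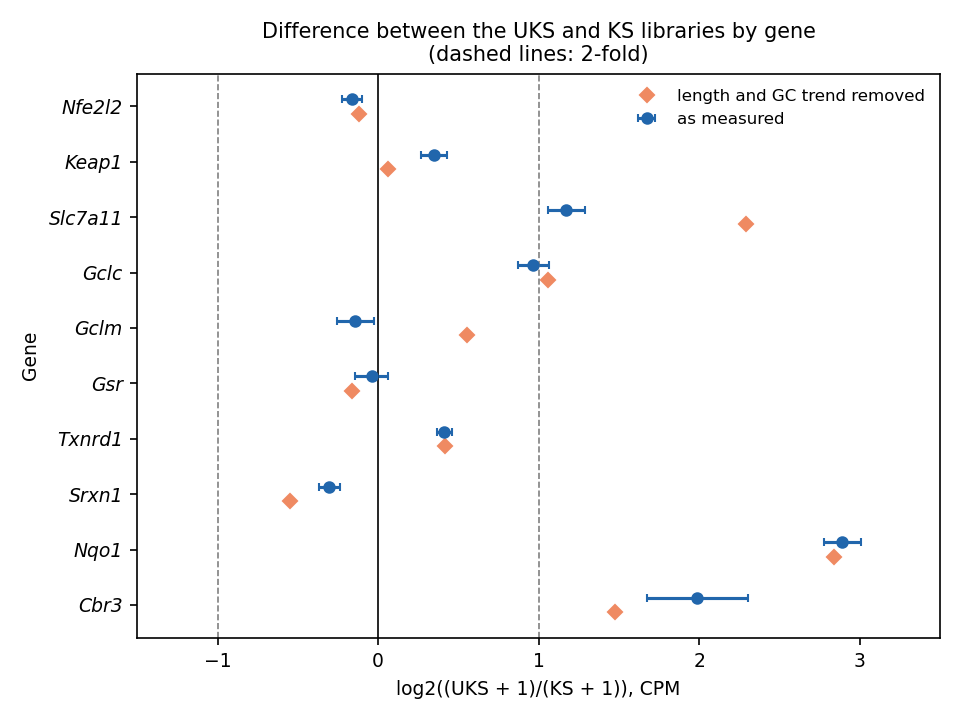
Difference between UKS and KS as log2((UKS + 1)/(KS + 1)) of CPM for each gene, as measured (blue circles) and with the trend over transcript length and GC content removed (orange diamonds); bars are the exact 95% intervals of the count ratio, centred on the measured value, and dashed lines mark 2-fold. Nqo1, Cbr3 and Slc7a11 lie beyond 2-fold on both scales, Gclc crosses the line and Gclm changes side.

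The order of the genes by level also differed between the libraries. On counts per transcript length, scaled to the same sum in each library, Nqo1 was first of the 10 in UKS at 290.1 and sixth in KS at 41.8, where its counting interval overlapped that of Gclc (39.6). Txnrd1 (227.7 in UKS, 188.8 in KS), Nfe2l2 (144.6 and 179.0) and Srxn1 (112.9 and 154.3) followed in that order in UKS and made up the top of the order in KS. Slc7a11 and Gclm were lowest in UKS (19.3 and 19.2, with overlapping intervals), and Slc7a11 and Cbr3 in KS (9.33 and 8.49, with overlapping intervals). Among all measured genes the length-scaled level of Nqo1 lay at percentile 96.1 in UKS and 66.1 in KS, and that of Cbr3 at 64.7 in UKS and 26.6 in KS. With the merged exons of each gene as its length, an alternative added after seeing the data, Nqo1 stayed first in UKS and sixth in KS, while Srxn1 moved above Nfe2l2 in UKS and to the first place in KS.

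**Figure D3:**
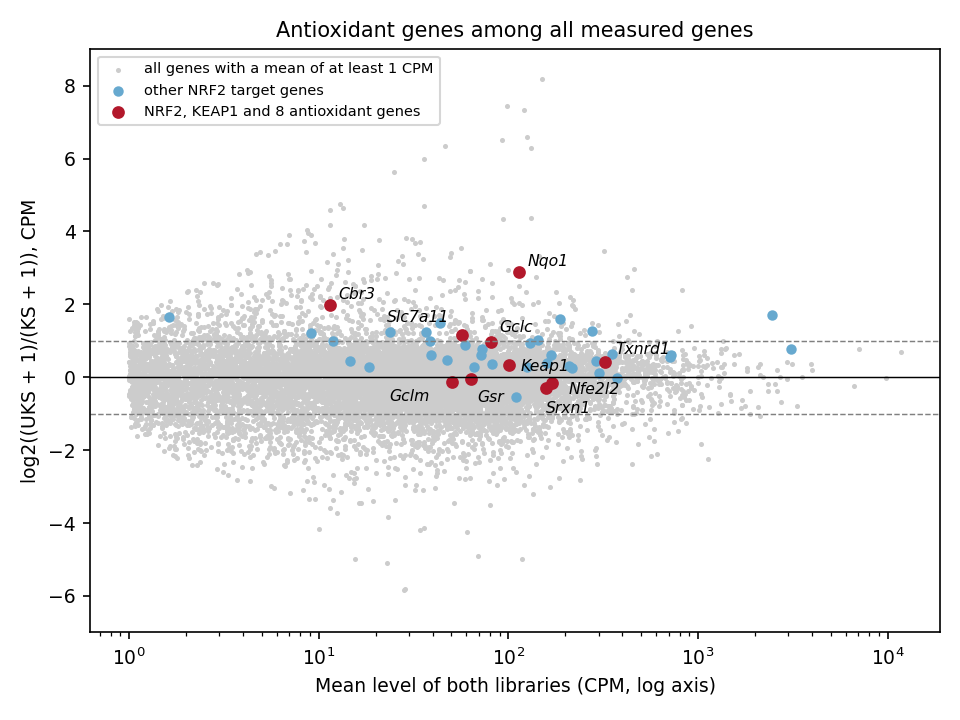
The log2 ratio of UKS over KS against the mean level of both libraries in CPM (log axis) for the 13015 measured genes (grey), with 34 other NRF2 target genes (blue) and the 10 genes (red, named); dashed lines mark 2-fold. Nqo1 at 2.89 and Cbr3 at 1.98 stand above most genes of their level, and the other red points lie between −0.30 and 1.17.

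Other genes described as NRF2 targets were also higher in UKS for the most part. Of 34 measured genes in a list of 37, 9 (26.5%) lay past 2-fold higher and none past 2-fold lower, beside 5.81% and 10.7% of all genes. A ratio above 0 was found for 32 (94.1%), beside 51.9% of all genes, and the median was 0.61. With the trend removed 7 lay past 2-fold higher, beside 5.52% of all genes. On that scale 31 had a ratio above 0, beside 6571 of all 12997 genes, and the median was 0.45, beside 0.01 for all genes. The list, chosen with earlier results of these data known, leans towards short, GC-rich transcripts, with a median trend of 0.27. The ferritin heavy chain Fth1, which stores iron, was at 3784 CPM in UKS and 1157 CPM in KS, 3.27-fold higher [3.23 to 3.31], a value that its processed pseudogenes make uncertain. The heme transporter Slc48a1 stood at 281.8 CPM in UKS and 92.6 CPM in KS (3.04-fold higher [2.90 to 3.19]). The aldehyde dehydrogenase Aldh3a1 had 70 counts in UKS and 7 in KS, a ratio of 11.3 [5.21 to 29.2]. The remaining genes past 2-fold were heme oxygenase 1 (Hmox1), Blvrb, Mgst1, Ugt1a6a, Osgin1 and Gstp1, at log2 ratios of 1.02 to 1.49, and they are named because the count is small, after their values were seen. Hmox1 (0.90), Blvrb (0.94), Osgin1 (0.74) and Gstp1 (0.48) were within 2-fold with the trend removed. Abcc4 (log2 0.999 as measured, 1.21 with the trend removed) and Aox1 (0.986 and 1.09) lay past 2-fold only with the trend removed. The 2 genes below 0 were malic enzyme Me1 (log2 −0.54) and transketolase Tkt (−0.02).

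Regulators and partners of NRF2 showed no common direction. Of 25 measured genes none lay past 2-fold higher and 2 (8%) past 2-fold lower, beside 5.81% and 10.7% of all genes. With the trend removed again none lay past 2-fold higher and 2 past 2-fold lower, beside 5.52% and 4.95% of all genes. The median of the 25 genes was 0.00, or −0.090 with the trend removed. The repressor Bach2, which competes for the same elements, had 10 counts in UKS and 123 in KS, 10.9-fold lower in UKS [5.72 to 23.3]. At 0.43 CPM in UKS and 4.66 CPM in KS, it passed the filter on low values only through KS. Its log2 ratio was −1.99, or −1.47 with the trend removed. The chromatin remodeller Chd6 was at 49.4 CPM in UKS and 101.8 CPM in KS, 2.06-fold lower in UKS [1.92 to 2.21], and Amer1 at 15.9 CPM in UKS and 31.9 CPM in KS (log2 −0.96), but with the trend removed their log2 ratios were −0.33 and −0.34. Outside the rule for named genes, and chosen after the values were seen, are Cul3, the ligase scaffold that KEAP1 joins, and Bach1, the more abundant repressor. Cul3 was at 71.9 CPM in UKS and 134.2 CPM in KS, and its log2 ratio of −0.89 was 0.01 with the trend removed. Bach1 was at 38.0 CPM in UKS and 53.2 CPM in KS, with a log2 ratio of −0.47 that was −0.08 with the trend removed.

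Other genes of glutathione metabolism lay on both sides of 0, more of them above. Of 20 measured genes 15 (75%) had a ratio above 0, beside 51.9% of all genes. With the trend removed 13 had one, beside 6571 of all 12997 genes. Past 2-fold were 4 (20%) higher and 1 (5%) lower, beside 5.81% and 10.7% of all genes. With the trend removed 2 were past 2-fold higher and 1 lower, beside 5.52% and 4.95% of all genes. The median of 0.30 was then 0.15. Glutaredoxin (Glrx), which removes glutathione from proteins, stood at 120.9 CPM in UKS and 42.5 CPM in KS, 2.84-fold higher [2.65 to 3.05]. The gamma-glutamyltransferase relative Ggt7 had 350 counts in UKS and 169 in KS (2.34-fold higher [1.94 to 2.83]), but its log2 ratio of 1.11 was 0.70 with the trend removed. Chac1, an enzyme that degrades glutathione and a known target of ATF4, was at 17.3 CPM in UKS and 49.1 CPM in KS, 2.85-fold lower in UKS [2.54 to 3.19] and at a log2 ratio of −1.95 with the trend removed. Slc7a11, which ATF4 also controls, was higher in the same library. The part of ATF4 in either difference was not tested.

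Of 20 genes of the thioredoxin and peroxiredoxin systems 1 (5%) lay past 2-fold higher and 1 (5%) past 2-fold lower. Neither share was above that of all genes (5.81% higher and 10.7% lower). The median of 0.25 was 0.05 with the trend removed. The peroxiredoxin Prdx5 was at 288.1 CPM in UKS and 101.6 CPM in KS, 2.84-fold higher [2.71 to 2.97]. The sestrin Sesn3 was at 78.5 CPM in UKS and 164.0 CPM in KS (2.09-fold lower in UKS [1.98 to 2.21]), and the methionine sulfoxide reductase Msrb3 at 48.8 CPM in UKS and 92.7 CPM in KS (1.90-fold lower [1.77 to 2.04]). None of Prdx5, Sesn3 and Msrb3 was past 2-fold with the trend removed. The 18 genes of quinone and carbonyl reduction other than Nqo1 and Cbr3 had a median of 0.49, or 0.19 with the trend removed. None lay past 2-fold lower on either scale, beside 10.7% of all genes as measured and 4.95% with the trend removed. On both scales 3 (16.7%) lay past 2-fold higher, beside 5.81% of all genes as measured and 5.52% with the trend removed. They were the carbonyl reductase Cbr2 (58.7 CPM in UKS, 3.30 CPM in KS, 17.8-fold higher [14.3 to 22.4]), the xylulose reductase Dcxr (66.6 CPM in UKS, 19.7 CPM in KS) and Aldh3a1 given above. Of these, Aldh3a1 passed the filter on low values only through UKS.

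**Figure D4:**
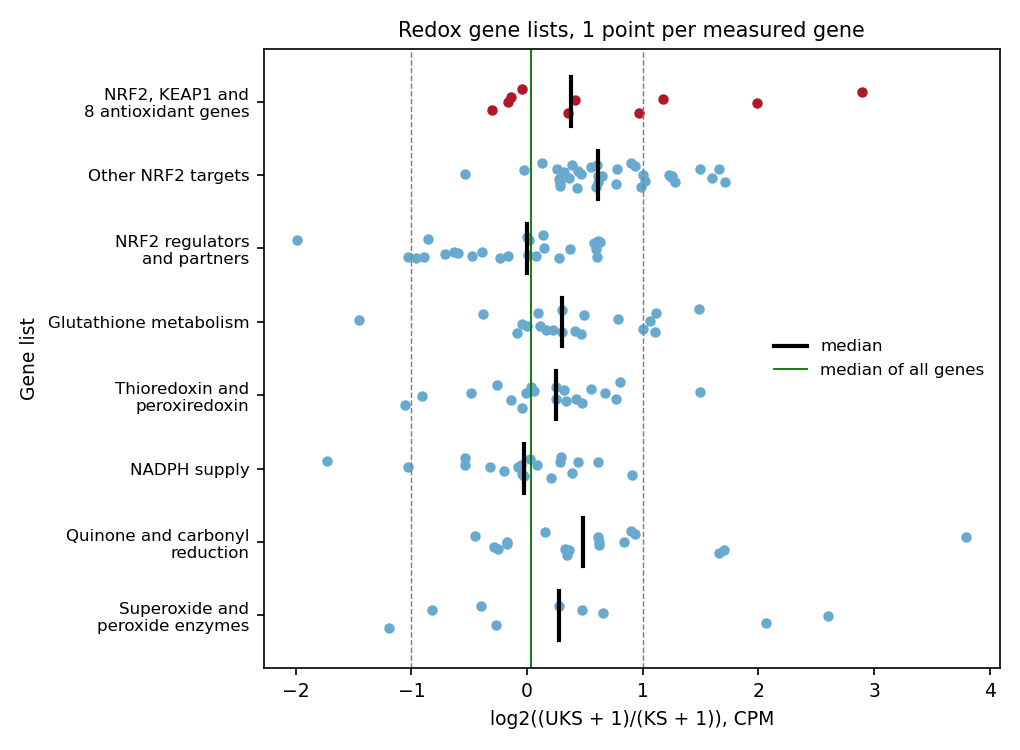
Log2 ratio of UKS over KS for every measured gene (points) of the 10 genes (red) and of 7 lists of redox genes (blue), with the median of each list (black bar), the median of all genes (green line) and 2-fold (dashed lines); a gene may stand in several lists. The medians run from −0.02 for NADPH supply to 0.61 for the other NRF2 targets, and the 10 genes have a median of 0.38.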

How the data were processed

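Per the labels' protocols, RNA was taken up in TRIzol and a TruSeq RNA kit gave the libraries. The submitters' processing notes name HISAT2, StringTie and GRCm38.p5 but neither their roles nor versions. The authors deposited estimated counts per gene, unscaled and with decimals (21.5% of values above 0 in UKS and 23.1% in KS were not whole), which were rounded here. Neither the counting program nor its strand setting is given in the sources used here, so reads of overlapping or similar genes may have been split. TMM factors (1.01 for UKS, 0.994 for KS) came from edgeR 4.0.16. Intervals are exact conditional binomial (Clopper-Pearson) for ratios and exact Poisson for levels (scipy 1.17.1).

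GENCODE M21 (GRCm38) gave the coordinates and, for the longest protein-coding transcript of a gene, its length and GC content. For the trend, log2 ratios were regressed with Tukey's biweight (robust linear model in statsmodels 0.14.6) on polynomials of order 3 in log2 length (limited to 200 to 20000 nt) and GC content (35 to 65%), over genes in none of the lists. A biological difference tied to length or GC content would be subtracted with it. The steps were tested on simulated data with counting error only, with and without a planted trend over transcript length. No trend over GC content was planted, so its removal was not tested. Alternatives were other scalings, pseudocounts, filters and unrounded counts.

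The genes and lists were chosen with earlier results of these data known. Named were the 10 genes, Usp16, the 3 genes of each redox list with the largest absolute ratio and abundant markers. Genes of similar pattern were not sought, since 2 libraries give 1 ratio per gene. A further engineered alteration that both lines share is not reported here.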

Additional observations from a re-analysis of the deposited data

How the results depend on the processing

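Under other scalings (library totals, DESeq2 size factors), pseudocounts (0.25 and 5 CPM), filters (none, or a mean of at least 5 CPM) and unrounded counts, 3 of the 10 genes stayed at least 2-fold higher and none lower. Over these 7 alternatives the log2 ratio of Nqo1 ran from 2.72 to 2.93, of Cbr3 from 1.40 to 2.16, of Slc7a11 from 1.09 to 1.19 and of Gclc from 0.92 to 0.99. With the length and GC trend removed the median of the 10 genes was 0.49 in place of 0.38, Gclm had 0.55 in place of −0.14, and 644 genes in all were at least 2-fold lower in place of 1396. With a pseudocount of 5 CPM 412 genes in all were at least 2-fold higher (756 as reported) and 836 lower, and of the genes in the 7 redox lists 3 were lower in place of 7. A larger pseudocount draws every ratio towards 0, most of all for low genes and enough to move genes just past 2-fold. Without a filter on low values the median of the superoxide and peroxide enzymes was −0.095 in place of 0.28, since 4 more genes, each under 1 CPM on average, then entered, and with a mean of at least 5 CPM it was 0.47. No replicate could be left out, and no paired analysis was possible because each group has 1 library. Counting error is small for these genes (the widest interval, for Cbr3, rests on 106 counts in KS), so the missing replicates and the trend, not depth, limit what can be said.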

Other observations

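Some relatives and partners of the 10 genes, chosen after the values were seen, are given for comparison. Nqo2, the quinone reductase related to Nqo1, was at 25.9 CPM in UKS and 35.7 CPM in KS (log2 −0.45, and 0.04 with the trend removed), and on the length-scaled level Nqo1 stood 19.2 times above Nqo2 in UKS and 1.82 times above it in KS. Cbr1 was at 47.4 CPM in UKS and 30.7 CPM in KS (1.55-fold higher [1.41 to 1.69]), and its length-scaled level exceeded that of Cbr3 2.38 times in UKS and 7.23 times in KS. The mitochondrial thioredoxin reductase Txnrd2 had 217 counts in UKS and 239 in KS, with a fold of 1.03 [0.850 to 1.24]. Nfe2l1, the NRF2 relative NRF1, had a log2 ratio of 0.00, at 310.3 CPM in UKS and 310.2 CPM in KS. Slc3a2, the heavy chain that carries Slc7a11 to the membrane, was at 264.7 CPM in UKS and 197.9 CPM in KS (1.34-fold higher [1.29 to 1.39]). With the trend removed the log2 ratio of Slc3a2 fell from 0.42 to 0.17, of Cbr1 from 0.61 to 0.23 and of Txnrd2 from 0.03 to −0.26.

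Among 9 measured genes that make or remove superoxide and peroxide, 2 (22.2%) lay past 2-fold higher and 1 (11.1%) past 2-fold lower. Of all genes 5.81% lay past 2-fold higher and 10.7% lower. A ratio above 0 was found for 5 of the 9 (55.6%), beside 51.9% of all genes. With the trend removed the median of 0.28 was 0.01. On that scale 2 lay past 2-fold higher and none past 2-fold lower, beside 5.52% and 4.95% of all genes. Manganese superoxide dismutase (Sod2), an NF-kB target, was at 169.1 CPM in UKS and 39.6 CPM in KS, 4.27-fold higher [3.99 to 4.57] and at a log2 ratio of 2.78 with the trend removed. The extracellular Sod3 had 2386 counts in UKS and 422 in KS, 6.39-fold higher [5.76 to 7.11]. The cytosolic Sod1, outside the rule for named genes, was at 232.4 CPM in UKS and 167.2 CPM in KS, with a log2 ratio of 0.47 that was 0.01 with the trend removed. The NADPH oxidase Nox4 had 55 counts in UKS and 176 in KS, 2.83-fold lower in UKS [2.08 to 3.90], and a log2 ratio of −0.55 with the trend removed.

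Genes that supply NADPH had a median log2 ratio of −0.02 (19 measured, none past 2-fold higher and 2 past 2-fold lower, a share near the 10.7% of all genes). With the trend removed the median was −0.23, with 7 of 19 above 0, 1 past 2-fold higher and 2 past 2-fold lower. Of all 12997 genes on that scale 6571 lay above 0, 5.52% past 2-fold higher and 4.95% past 2-fold lower. The mitochondrial folate enzymes Aldh1l2 (42.5 CPM in UKS, 143.6 CPM in KS, 3.38-fold lower in UKS [3.15 to 3.62]) and Mthfd2 (59.8 CPM in UKS, 123.4 CPM in KS, 2.06-fold lower [1.94 to 2.20]) are known targets of ATF4, and with the trend removed their log2 ratios were −1.38 and −1.19. A part of ATF4 in these differences was not tested. The mitochondrial NAD kinase Nadk2 was at 68.0 CPM in UKS and 35.9 CPM in KS, with a log2 ratio of 0.90 that was 1.33 with the trend removed.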
